A study of Mus musculus with 3 samples.

Results

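The genes described here encode the machinery that releases synaptic vesicles: synaptotagmins, SNARE proteins and their partners, active zone scaffolds, synapsins and vesicle membrane proteins. They were taken by name from a list of 38 gene symbols, and 37 of the 38 were among the 25562 genes of the tables. The rule set no condition on their values, but the list was chosen with earlier results of these data known. Rims1 was not analysed here. The RNA came from mouse neurons of the medial ganglionic eminence (MGE), the embryonic source of many cortical inhibitory neurons, taken at embryonic day 14 and grown in culture for 10 days. All cultures were silenced overnight from day 9 with TTX, a blocker of sodium channels, and AP-5, a blocker of NMDA receptors. They were then depolarised with 55 mM extracellular KCl for 0, 1 or 6 h, so the 0 h library is the silenced state and every library carries the silencing. There was 1 library of total RNA, depleted of ribosomal RNA, for each time. The titles carry the letters WT, which the protocol also uses for whole transcriptome sequencing, so no genotype is stated here.

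In a nerve terminal, vesicles filled with transmitter are held by synapsins, docked at the active zone by Bassoon, Piccolo, RIM, ELKS and Munc13 proteins, and fused by a SNARE complex of Vamp2 on the vesicle with Stx1a and Snap25 on the plasma membrane. Synaptotagmins are membrane proteins of which several bind calcium, and Syt1 is the calcium sensor of fast release. Complexins clamp and assist the SNARE complex, and Nsf with Napb takes it apart after fusion. MGE cultures of this kind hold mainly GABA-releasing neurons, which use the same fusion machinery as other neurons.

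The libraries held 8549377 to 8996897 uniquely mapped reads, of which 2189394 to 2480579 were sense reads in exons and 1789710 to 2123187 were sense reads in introns. All 12 listed markers of MGE-derived interneurons had at least 20 reads, at a summed level of 5047, 4811 and 6550 scaled RPM (exonic reads scaled to library size) at 0, 1 and 6 h. The listed markers did not move together: from 0 h to 6 h Gad1 went from 2787 to 5361 reads, and Lhx6 from 838 to 496. None of 7 markers of excitatory cortical neurons reached 20 reads, and 2 of them were at 0 in every library. Markers of the oligodendrocyte lineage, 4 of 7 with at least 20 reads, summed to 127, 131 and 164 RPM. Those of dividing cells summed to 98.6, 93.9 and 78.9 RPM. The 8 markers of astrocytes and radial glia were all present and summed to 2452, 2588 and 2689 RPM. In bulk RNA of this kind, fewer cells of a type and less RNA per cell cannot be told apart, and the part of these cell types in the results was not tested.

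The presynaptic genes together held 1.07%, 1.01% and 1.07% of all exonic reads at 0, 1 and 6 h. With 1 library per time there were no replicates and no test, so reads of a gene were scaled between libraries and given as a ratio, with a 95% interval in parentheses that covers counting error only. To be called higher or lower, a gene needed a ratio of 2 or more or of 0.5 or less, an interval without 1, and 20 or more reads in 1 of the libraries compared. The 3 comparisons share libraries, so their values are not independent of each other. Of the 37 genes, 34 had at least 20 exonic reads in a library. The others were Syt2, Syt10 and Unc13c, with 2 to 13 reads in each library. At 1 h against 0 h, 0 of the 34 were called in either direction, beside 1.58% of all compared genes called higher and 1.43% called lower. In the 6 h library against 0 h, Syt4 and Sv2c were called higher and Syt9 lower among 33 compared, beside 4.92% and 5.42% of all genes. Between 1 h and 6 h, Syt4 and Sv2c were called higher and Syt9 and Syt12 lower among 34, beside 4.17% and 4.63%. The median log2 ratio of the members was 0.00, 0.02 and 0.07 in these comparisons, against 0.01, 0.00 and 0.01 over all compared genes. The interval held 1 for 22 of 34, 14 of 33 and 19 of 34 members.

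A smaller size of 1.5-fold added a few genes. At 1 h against 0 h it called 0 members higher and 2 lower, Bsn and Pclo, where the background was 3.76% and 5.3%. For 6 h against 0 h it called Syt4, Sv2c and Sv2b higher and Syt9, Syn3, Syt3 and Bsn lower, where the background was 11.6% and 13.2%. For 6 h against 1 h it called the same members as the larger size, where the background was 9.88% and 10.9%.

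**Figure D1:**
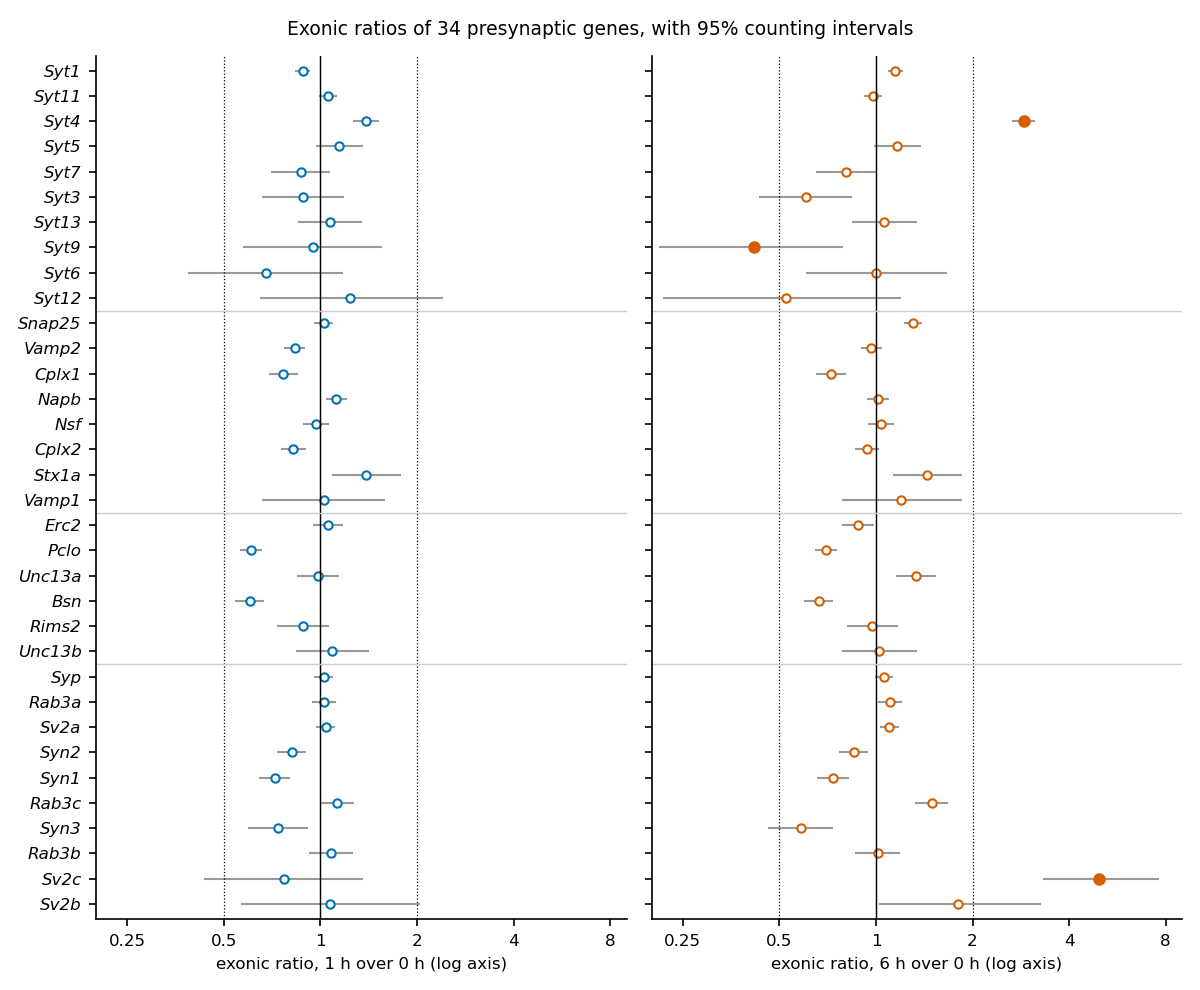
Exonic ratio of 34 genes at 1 h (left) and 6 h (right) over 0 h on a log axis, ordered by role from synaptotagmins at the top to vesicle proteins at the bottom; lines are 95% counting intervals, dotted lines mark ratios of 0.5 and 2, and filled points are called. No point is filled at 1 h, and Syt4, Sv2c and Syt9 are filled at 6 h.

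Intronic reads, which come largely from RNA not yet spliced, were scaled among themselves and called by the same rule. At 1 h against 0 h, Syt4, Vamp2 and Sv2c were called higher and Napb lower among 29 members, beside 7.48% of all compared genes called higher and 6.19% lower. At 6 h against 0 h, Syt4, Snap25 and Sv2c were called higher and Syn3 and Cplx2 lower among 28, beside 5.27% and 5.59%. Between 1 h and 6 h, Stx1a was called higher and Syt4, Syn3 and Vamp2 lower among 28, beside 7.07% and 5.79%. The members' median log2 intronic ratio was 0.05, -0.06 and -0.03, and that of all compared genes -0.05, 0.05 and 0.04. Intronic reads were 23.6%, 20.9% and 24.4% of mapped reads. Scaling introns by the exonic factors instead moved the median log2 intronic ratio of all genes to -0.66 at 1 h against 0 h, -0.19 at 6 h against 0 h and 0.40 at 6 h against 1 h, so intronic ratios are relative to the other introns of a library.

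Levels between genes were compared as exonic RPKM, the scaled exonic reads per unit of exon length and of library size. The median level at 0 h was 47.9 RPKM over the 34 members and 15.2 RPKM over all genes with as many reads. The 5 members with the highest level at 0 h were Snap25 at 336 RPKM, Syp at 323, Rab3a at 304, Syt1 at 303 and Vamp2 at 292. Snap25 and Vamp2 are SNARE proteins, Syt1 the calcium sensor, Rab3a a small GTPase of the vesicle, and Syp (synaptophysin) an abundant vesicle membrane protein. At 6 h the same 5 genes stood at 438 RPKM for Snap25, 341 for Syp, 336 for Rab3a, 349 for Syt1 and 282 for Vamp2. Syt4, at 86.1 RPKM in the silenced state, reached 249 RPKM at 6 h. Paralogs differed widely in level: at 0 h Sv2a stood at 180 RPKM, Sv2c at 3.12 and Sv2b at 1.82, and Vamp2 at 292 against 5.80 for Vamp1.

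**Figure D2:**
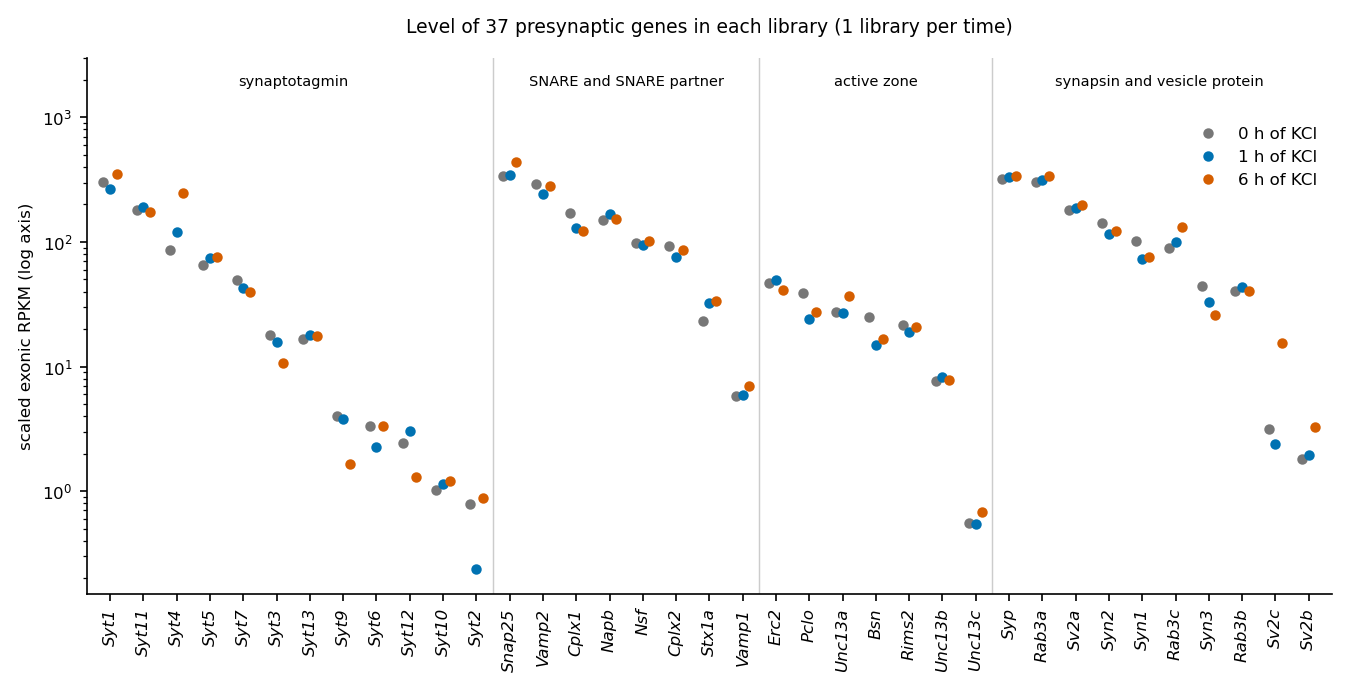
Scaled exonic RPKM of each of the 37 genes on a log axis, by role and in order of the level at 0 h, with 1 point for each library (grey 0 h, blue 1 h, orange 6 h). The 3 points of most genes lie close together, while Syt4 and Sv2c stand apart at 6 h, Sv2c going from 3.12 to 15.5 RPKM.

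Among the synaptotagmins, Syt4 changed most in reads. Syt4 (chromosome 18, positions 31597462 to 31607069 of mm9, minus strand, 4 exons) is an atypical synaptotagmin, known as an activity-induced gene and found on secretory vesicles. It had 753 exonic reads at 0 h, 1168 at 1 h and 2301 at 6 h. The ratio was 1.38 (1.26 to 1.52) at 1 h and 2.89 (2.66 to 3.14) at 6 h against 0 h, and 2.09 (1.95 to 2.24) at 6 h against 1 h. The last of these was 1.95 and 1.96, below the called size, when libraries were scaled by total exonic or by mapped reads, respectively. All 4 exons were higher at 6 h, with ratios of 2.82, 2.53, 3.23 and 3.11 from the first to the last.

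The introns of Syt4 moved ahead of its exons. They held 27 reads at 0 h, 135 at 1 h and 57 at 6 h, a ratio of 6.81 (4.48 to 10.7) at 1 h and 2.37 (1.47 to 3.89) at 6 h against 0 h. From 1 h to 6 h the intronic ratio was 0.348 (0.251 to 0.477) while the exonic ratio was above 2. Each of the 3 introns was highest at 1 h, at 59, 46 and 30 reads against 18, 4 and 5 at 0 h. With the exonic factors, the intronic ratio at 6 h against 0 h was 1.996 and no longer reached the size.

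Syt9, a calcium sensor of some neurons and endocrine cells, and Syt12, which binds no calcium, were called lower from few reads. Syt9 had 34, 36 and 15 exonic reads at 0, 1 and 6 h, a ratio of 0.417 (0.211 to 0.787) at 6 h against 0 h and 0.442 (0.225 to 0.827) against 1 h. Its introns had 35, 21 and 20 reads, with an interval of 0.351 to 1.14 at 6 h against 0 h that held 1. Syt12 had 18, 25 and 10 exonic reads, a ratio of 0.424 (0.182 to 0.914) at 6 h against 1 h. Both genes fall below a minimum of 50 reads, under which neither is called. Syt3, a calcium-binding synaptotagmin of high affinity, had 97, 96 and 62 reads and a ratio of 0.604 (0.432 to 0.84) at 6 h against 0 h.

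The other synaptotagmins had exonic ratios nearer 1. Syt1 had 2574, 2541 and 3127 exonic reads, with ratios to 0 h of 0.88 (0.833 to 0.93) at 1 h and 1.15 (1.09 to 1.21) at 6 h. Syt11, which binds no calcium, was the next in level at 179, 189 and 175 RPKM, and its interval at 6 h against 0 h was 0.915 to 1.04. Syt7, a slow and sensitive calcium sensor, had 186, 181 and 159 exonic reads. Its introns had 220, 115 and 107 reads, a ratio of 0.545 (0.429 to 0.69) at 6 h against 0 h that falls short of the called size, and 0.46 with the exonic factors. Syt5, Syt6 and Syt13 had exonic ratios of 1.16, 1.00 and 1.06 at 6 h against 0 h, each with an interval that held 1. Syt1 shares its strand with an overlapping predicted gene, so some of its reads are uncertain.

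None of the 8 genes for SNAREs and their partners was called by exonic reads. By intronic reads, Vamp2 and Napb were called at 1 h against 0 h, and Snap25 and Cplx2 at 6 h against 0 h. Stx1a and Vamp2 were called at 6 h against 1 h. The background shares given above are each for a single comparison and direction. The share of all genes called in any comparison is not given, so an excess of intronic calls in this group was not tested. The introns of Vamp1, with 1, 4 and 4 reads, were too few to compare. Snap25 (chromosome 2, positions 136539186 to 136608164 of mm9, plus strand) had 1595, 1832 and 2197 exonic reads, ratios of 1.02 (0.957 to 1.1) at 1 h and 1.30 (1.22 to 1.39) at 6 h against 0 h. Its introns held 825, 1118 and 1565 reads, ratios of 1.84 (1.68 to 2.02) and 2.13 (1.95 to 2.32). The latter was 1.79, 1.92 and 1.99 when introns were scaled by the exonic factors, by total intronic reads and by mapped reads, and was then not called.

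A known exon lies inside the counted introns of this gene. Snap25 has a pair of mutually exclusive exons 5, each of 118 bases, whose use shifts from the first to the second of the pair as the brain matures. The authors' gene model holds only the second, and the first lies inside the counted intron 4, from base 6122 to base 6239 past exon 4, so that any read within it falls into the intronic count. How many reads do so was not counted apart. Both sequences are shown so that the exon the tables count can be told from the exon they leave in intron 4. They were read on the plus strand from GRCm38 at chr2:136769743-136769860 and chr2:136770057-136770174, and capitals mark the 31 positions at which they differ.

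Exon 5 inside counted intron 4: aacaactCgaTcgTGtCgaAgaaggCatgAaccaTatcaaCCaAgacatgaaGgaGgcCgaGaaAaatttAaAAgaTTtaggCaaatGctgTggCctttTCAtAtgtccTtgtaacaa
Exon 5 of the counted model: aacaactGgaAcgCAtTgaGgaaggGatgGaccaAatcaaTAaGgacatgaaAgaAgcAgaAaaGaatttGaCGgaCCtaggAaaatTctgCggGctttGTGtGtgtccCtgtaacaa

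Reads lying within the counted exon 5 of Snap25, splice reads left out, numbered 9 at 0 h, 15 at 1 h and 30 at 6 h. Their ratio was 3.15 (1.46 to 7.55) at 6 h against 0 h. The counts of exons 4, 6 and 7 below leave out splice reads too. Exon 6, of 126 bases, held 78, 51 and 98 reads, and exon 7, of 145 bases, held 113, 175 and 169. Exon 4, of 49 bases, held 15, 13 and 16 reads. By these counts exon 5 held fewer reads than exons 6 and 7 in each of the 3 libraries, and more than the shorter exon 4 at 1 h and 6 h. Splice reads, given next, were not added to them. Splice reads of both pairs at exon 5 were not higher at 6 h than at 0 h. The ratio of 3.15 therefore describes only reads within the exon. Splice reads were 12, 7 and 11 from exon 4 to the counted exon 5 and 20, 17 and 19 from it to exon 6, against 22, 16 and 31 from exon 3 to exon 4 and 25, 54 and 43 from exon 6 to exon 7. Intron 4 held 301, 295 and 618 reads. Without it, a choice made after its reads were seen, the other introns of Snap25 held 524, 823 and 947 reads. Their ratio to 0 h was 2.14 (1.91 to 2.39) at 1 h, which passes the called size, and 2.03 (1.82 to 2.26) at 6 h. With the exonic factors these were 1.40 and 1.71.

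Vamp2, the SNARE protein of the vesicle, had 1415, 1317 and 1448 exonic reads, ratios of 0.83 (0.769 to 0.895) at 1 h and 0.968 (0.899 to 1.04) at 6 h. Its 4 short introns, 1690 bases in all, held 11 reads at 0 h, 43 at 1 h and 13 at 6 h. The intronic ratio was 5.32 (2.7 to 11.4) at 1 h against 0 h and 0.249 (0.123 to 0.472) at 6 h against 1 h, so only the 1 h library was high. Both calls end under a stricter minimum of 50 reads. Stx1a, the syntaxin of the fusion complex, had 108, 168 and 165 exonic reads, ratios of 1.39 (1.08 to 1.78) and 1.44 (1.13 to 1.86) to 0 h. Its introns held 36, 18 and 47 reads and were called at 6 h against 1 h, at 2.15 (1.23 to 3.94). This call also ends under a minimum of 50 reads. Most of the difference lay in intron 3, with 19, 3 and 27 reads. Intron 1, the longest, held 12, 11 and 6 reads, a ratio of 0.449 (0.136 to 1.33) at 6 h against 1 h.

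The genes that take the SNARE complex apart had exonic ratios near 1. Napb (beta-SNAP), the adaptor of Nsf, had 1245, 1563 and 1335 exonic reads, ratios of 1.12 (1.04 to 1.21) and 1.01 (0.938 to 1.1). Its introns held 164, 56 and 90 reads, lowest at 1 h, with a ratio of 0.465 (0.337 to 0.633) there and 0.615 (0.471 to 0.801) at 6 h. Nsf, the ATPase, had 824, 895 and 903 exonic reads, and both its intervals against 0 h held 1. Nsf also shares its strand with an overlapping predicted gene, so some of its reads are uncertain.

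The complexins were below the 0 h library at 1 h. Cplx1 had 794, 681 and 608 exonic reads, ratios of 0.765 (0.689 to 0.848) and 0.724 (0.65 to 0.806). Cplx2 had 1022, 941 and 1012 exonic reads, ratios of 0.821 (0.751 to 0.898) and 0.936 (0.858 to 1.02). Cplx2 introns had 22, 13 and 7 reads and were called lower at 6 h against 0 h, at 0.357 (0.129 to 0.865), a call that ends under a minimum of 50 reads. The introns of Cplx1, with 115, 124 and 138 reads, had a ratio of 1.47 (1.13 to 1.91) at 1 h, which was 0.962 (0.74 to 1.25) with the exonic factors, so its direction depends on the scaling. Vamp1 had 41, 47 and 52 exonic reads, and its intervals held 1 in all 3 comparisons.

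**Figure D3:**
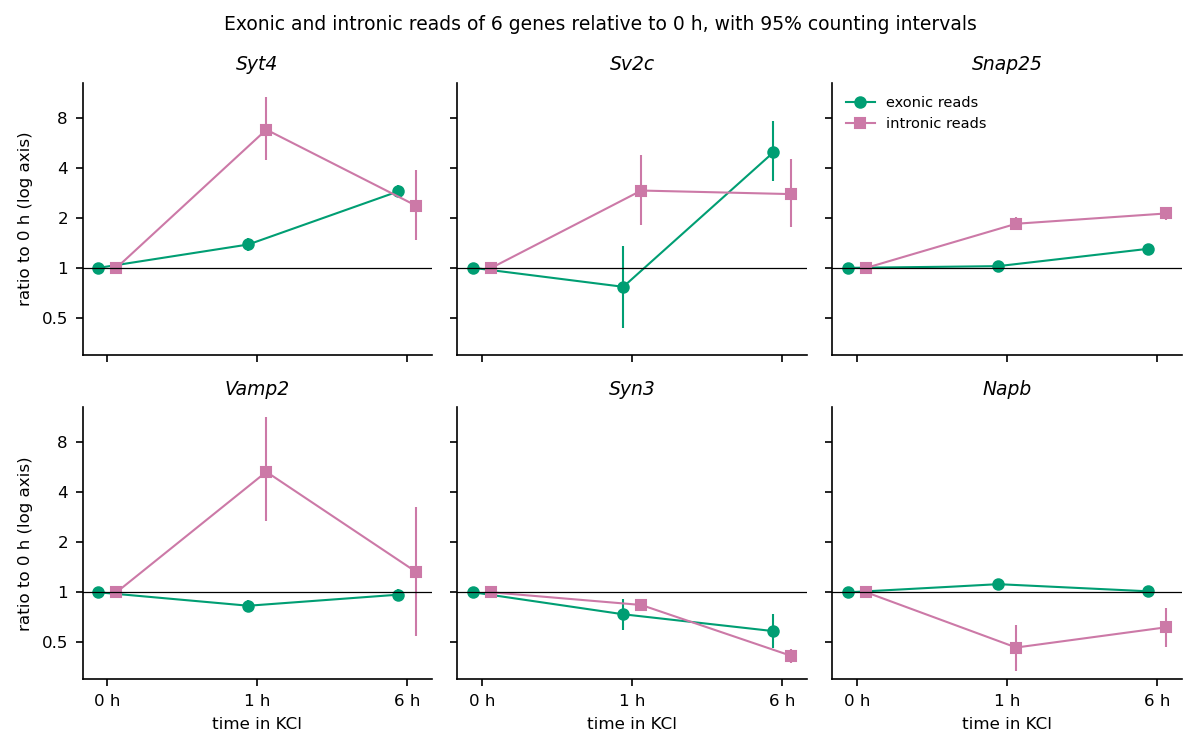
Ratio to the 0 h library of exonic reads (green circles) and intronic reads (pink squares) of 6 genes by time in KCl, on a log axis with 95% counting intervals. Intronic reads of Syt4 and Vamp2 are highest at 1 h, at 6.81 and 5.32, those of Syn3 are lowest at 6 h, at 0.414, and exonic reads of Sv2c are high at 6 h only, at 4.96.

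At the active zone, Bsn and Pclo, the giant scaffolds Bassoon and Piccolo, were lower by more than 1.5-fold at 1 h but were not called at 2-fold. Scaling by mapped reads moved the median log2 exonic ratio of all genes at 1 h to 0.25, and the 1.5-fold calls were not repeated under it. Bsn (15937 bases of exon) had 889, 599 and 623 exonic reads, ratios of 0.601 (0.54 to 0.67) at 1 h and 0.663 (0.597 to 0.735) at 6 h. Pclo (16756 bases of exon) had 1474, 1005 and 1092 exonic reads, ratios of 0.608 (0.561 to 0.659) and 0.701 (0.647 to 0.758). Both were highest at 0 h and lower at both later times by more than counting error. The longest exon of Pclo, exon 6 with 5059 bases, went from 452 to 228 reads at 1 h, a ratio of 0.45 (0.382 to 0.529), whereas its last exon, with 2162 bases, had 71, 80 and 88 reads. The last exon of Bsn, with 3876 bases, had 217, 118 and 140 reads, a ratio of 0.485 (0.384 to 0.61) at 1 h.

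Transcript length moved with this difference at 1 h. In a comparison chosen after the values of Bsn and Pclo were seen, genes with at least 10 kb of exon (n = 186) had a median exonic ratio of 0.838 at 1 h against 0 h, and 12.9% of them were lower by at least 1.5-fold. Genes with 1 to 4 kb of exon had a median of 1.033, and 4.49% were lower by that size. By 6 h against 0 h the medians were 0.908 and 1.00, and 15.3% and 12.98% were lower by that size. The part of length in the ratios of Bsn and Pclo was not tested. Their introns had ratios of 0.888 (0.709 to 1.11) and 0.84 (0.753 to 0.938) at 1 h.

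The other active zone genes were closer to 1. Unc13a, the main Munc13 protein, which primes vesicles, had 333, 367 and 470 exonic reads, a ratio of 1.33 (1.16 to 1.54) at 6 h against 0 h. Its introns had 75, 88 and 129 reads, a ratio of 1.93 (1.44 to 2.6) at 6 h, just under the called size. Erc2, which encodes an ELKS scaffold protein, had 635, 753 and 589 exonic reads and a ratio of 0.877 (0.783 to 0.983) at 6 h. Rims2, a RIM protein that tethers vesicles and calcium channels, had 230, 227 and 237 exonic reads, and Unc13b had 109, 133 and 118, with intervals that held 1 in all 3 comparisons.

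Of the vesicle proteins, Sv2c had the largest exonic ratios of any member. Sv2c (chromosome 13, positions 96729398 to 96902532 of mm9, minus strand, 15 exons) is a glycoprotein of synaptic vesicles, known for a restricted distribution in the brain, and its model in the tables is a predicted transcript. It had 29 exonic reads at 0 h, 25 at 1 h and 152 at 6 h, a ratio of 0.769 (0.432 to 1.36) at 1 h and 4.96 (3.32 to 7.65) at 6 h against 0 h. Only the 6 h library was high, and the ratio of 6 h to 1 h was 6.45 (4.2 to 10.3). Its introns held 27, 58 and 67 reads, ratios of 2.92 (1.82 to 4.8) at 1 h and 2.78 (1.76 to 4.53) at 6 h, so introns were already higher at 1 h. With the exonic factors the intronic ratio at 1 h was 1.92 and was not called.

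The paralogs of Sv2c differed in level and ratio. Sv2a, the common form of the family and the target of the drug levetiracetam, had 1584, 1844 and 1840 exonic reads, ratios of 1.04 (0.97 to 1.11) and 1.10 (1.03 to 1.18) to 0 h. Sv2b had 20, 24 and 38 exonic reads, a ratio of 1.80 (1.02 to 3.26) at 6 h. The interval of Sv2c at 6 h lay above those of both paralogs.

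All 3 synapsins, which tie vesicles into a reserve pool, were below the 0 h library at 1 h and 6 h, by less than 2-fold in exons. Syn1 had 711, 575 and 553 exonic reads, ratios of 0.721 (0.645 to 0.806) and 0.736 (0.657 to 0.823). Syn2 had 765, 697 and 689 exonic reads, ratios of 0.813 (0.732 to 0.902) and 0.852 (0.767 to 0.945). Syn3 had 196, 162 and 121 exonic reads, ratios of 0.737 (0.595 to 0.912) and 0.584 (0.462 to 0.736). The order of the libraries was the same for the 3 genes in one respect: 0 h was highest in each.

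Introns of the synapsins were called for Syn3 alone. They held 1603 reads at 0 h, 988 at 1 h and 592 at 6 h, ratios of 0.839 (0.774 to 0.909) at 1 h and 0.414 (0.376 to 0.455) at 6 h against 0 h. Against 1 h the ratio at 6 h was 0.494 (0.445 to 0.547), which became 0.635, 0.512 and 0.597 under the other intronic scalings and was then not called. Each of the 4 longest introns, from 41161 to 216502 bases, was lower at 6 h, with ratios of 0.492, 0.421, 0.404 and 0.376 in gene order. Timp3 lies within Syn3 on the opposite strand, and reads on that strand of the Syn3 introns were 231, 233 and 254. Syn1 introns had 135, 126 and 117 reads, and their intervals against 0 h held 1. Syn2 introns had 762, 666 and 589 reads, with ratios of 1.19 (1.07 to 1.32) at 1 h and 0.867 (0.777 to 0.967) at 6 h, of which the first turns to 0.779 with the exonic factors.

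Promoters were searched for letters bound by factors known for activity-dependent transcription. RefSeq promoter windows, 250 bases before to 50 bases after the start on GRCm38.p6, were matched for 28 of the 37 genes, and both strands were searched. Syt4, Syt5, Syt7, Syt12, Syt13, Syn3, Snap25, Vamp2 and Rims2 were not searched, so nothing is said here of their promoters. The full cAMP response element TGACGTCA, the site of CREB, was present in 1.79% of all 32851 windows and in 1 of the 28 members searched, Syn1. Its short form TGACG, which the full element contains, was in 20.8% of all windows and in 8 members. The AP-1 letters TGANTCA were in 7.81% of windows and in 3 members, and the Egr letters GCGNGGGCG in 5.55% of windows and in 4 members. The Sv2c window held none of these letters. The stretch of the Syn1 promoter around the element is shown because it was the one match of the full element among those 28, with the element in capitals, on the minus strand at chrX:20921050-20921097 of GRCm38.p6. The element begins 159 bases before the start site.

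Syn1: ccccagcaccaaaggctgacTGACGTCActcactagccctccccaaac

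The Syn1 transcript, with this element, had exonic ratios below 1 at both times, as given above. A match describes letters only, and binding was not measured.

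Among the Rab3 proteins, small GTPases that attach to vesicles before release, Rab3c had the highest ratio. It had 461, 581 and 727 exonic reads, ratios of 1.12 (0.993 to 1.27) at 1 h and 1.49 (1.33 to 1.68) at 6 h. Its introns had 1086, 758 and 1746 reads, ratios of 0.95 (0.865 to 1.04) and 1.80 (1.67 to 1.95), with only the 6 h library high. Rab3c overlaps a predicted gene on its own strand, so its reads are uncertain in part. Rab3a had 1041, 1197 and 1218 exonic reads and Rab3b had 299, 362 and 320, with ratios of 1.11 (1.02 to 1.2) and 1.01 (0.862 to 1.19) at 6 h. Syp had 1696, 1944 and 1897 exonic reads and a ratio of 1.06 (0.99 to 1.13) at 6 h.

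In Snap25, Rab3c and Sv2c, the ratio of 1 h to 0 h was higher in the first intron than in the sum of the later introns. Several other members had this order too, mostly by less, as given with the odds below. These 3 genes and the groups of introns were chosen after the values were seen. The first intron of Snap25, of 42467 bases, held 257, 502 and 368 reads, ratios of 2.66 (2.28 to 3.1) at 1 h and 1.61 (1.37 to 1.89) at 6 h. With the exonic factors its ratio at 1 h was 1.74 (1.5 to 2.03). Its later introns together held 568, 616 and 1197 reads, ratios of 1.48 (1.31 to 1.66) and 2.36 (2.14 to 2.62), the first of which was 0.967 with the exonic factors. The later introns were not alike. Introns 2 and 3 held 61, 125 and 127 reads, a ratio of 2.79 (2.04 to 3.85) at 1 h, as high as in the first intron. Introns 4 to 6 held 492, 458 and 1038 reads, ratios of 1.27 (1.11 to 1.44) and 2.37 (2.12 to 2.64). Intron 7, the last, held 15, 33 and 32 reads, ratios of 2.99 (1.58 to 5.93) and 2.39 (1.26 to 4.75). From 1 h to 6 h, intron 1 was lower, at 0.604 (0.527 to 0.692), and introns 4 to 6 were higher, at 1.87 (1.67 to 2.09), with either set of factors.

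In Rab3c the first intron was already higher at 1 h and the later introns only at 6 h. The first intron held 71, 112 and 161 reads, ratios of 2.15 (1.58 to 2.93) at 1 h and 2.54 (1.91 to 3.41) at 6 h. The later introns held 1015, 646 and 1585, ratios of 0.866 (0.784 to 0.957) and 1.75 (1.62 to 1.9). With the exonic factors the ratios at 1 h were 1.41 (1.04 to 1.92) in the first intron and 0.568 (0.513 to 0.627) in the later introns. The first intron of Sv2c held 5, 35 and 17 reads, and its later introns 22, 23 and 50, among which intron 2 held 9, 16 and 7. In Sv2c the first intron was highest at 1 h, when its exons had 25 reads, and the exons at 6 h.

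The odds of first-intron against later-intron reads were compared in 16 members in each comparison, with approximate intervals. Each part needed at least 20 reads in 1 of the 2 libraries compared. The 16 were not the same throughout. Unc13b took the place of Sv2c at 6 h against 0 h and of Syt11 at 6 h against 1 h. At 1 h against 0 h the odds were at least 2-fold higher in Sv2c, at 6.18 (2.12 to 18.0), and in Rab3c, at 2.47 (1.81 to 3.38), beside 5.73% of all genes compared this way. Snap25 had an odds ratio of 1.80 (1.49 to 2.17), under that size. Syt4, whose introns are all short, was lower at 0.399 (0.17 to 0.937), beside 4.91% of all genes. For 6 h against 0 h the odds were higher in Syt7, at 2.22 (1.24 to 3.97), and in Bsn, at 2.20 (1.41 to 3.42), beside 3.51% of all genes, and lower in none of the 16, beside 3.86%. From 1 h to 6 h the odds were lower in Snap25, at 0.378, and in Sv2c, at 0.229, beside 6.21% of all genes. None of the 16 was higher, beside 4% of all genes.

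**Figure D4:**
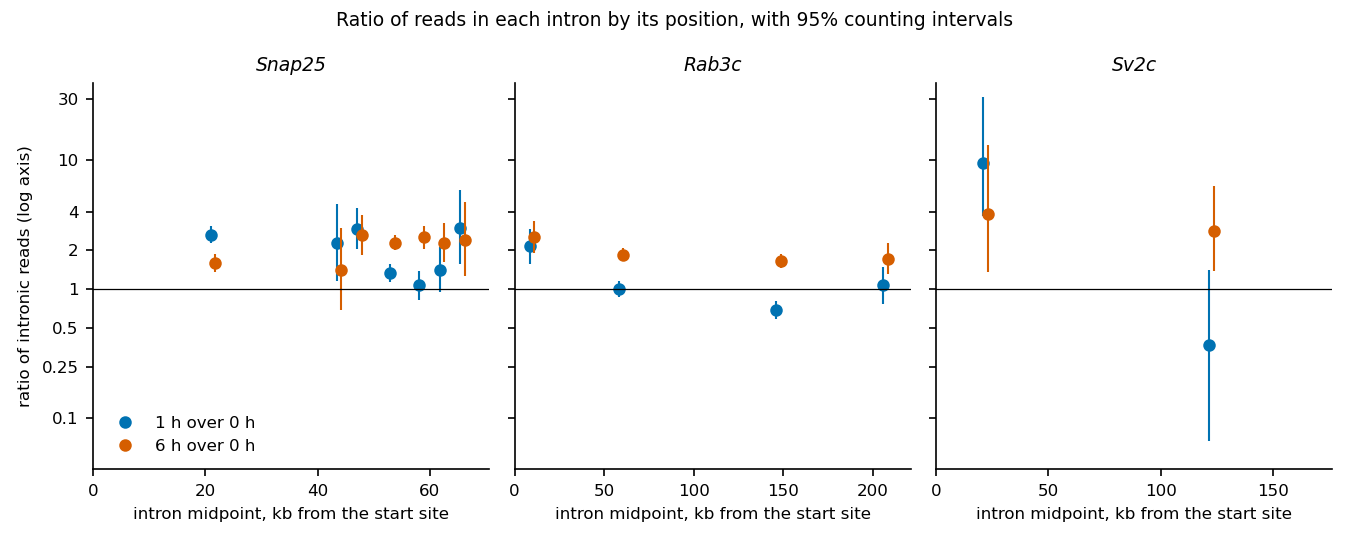
Ratio of reads in each intron with at least 20 reads in a library, at 1 h (blue) and 6 h (orange) over 0 h, by distance of the intron's midpoint from the start site, for Snap25, Rab3c and Sv2c; log vertical axis, 95% counting intervals. With the intronic factors used here, the first intron is above 2 at 1 h in all 3 genes. The later introns of Rab3c lie near or below 1 at 1 h and above 1 at 6 h. Snap25 introns 3 and 7 are as high as its first intron at 1 h.

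Other genes of vesicle release and recycling were counted by the same rule on exonic reads, by which 3.002% of all compared genes were called in either direction at 1 h against 0 h, 10.3% at 6 h against 0 h and 8.80% at 6 h against 1 h. Among fusion regulators and further active zone genes, 0 of 35 were called at 1 h against 0 h and 1 of 34 at 6 h against 0 h. That gene was Doc2b, a calcium sensor of spontaneous release, with 36, 28 and 13 reads and a ratio of 0.341 (0.166 to 0.659). Against 1 h Doc2b was again lower, and Lin7a, a scaffold partner of Cask, was higher with 75, 70 and 144 reads, at 2.18 (1.63 to 2.95). Among 27 genes of vesicle endocytosis, only Eps15, a clathrin adaptor, was called. It had 252, 333 and 638 reads and ratios of 2.39 (2.07 to 2.78) to 0 h and 2.03 (1.78 to 2.33) to 1 h at 6 h. None of 17 or 18 other vesicle proteins, among them the vesicular GABA transporter and proton pump subunits, was called in any comparison, and their median log2 ratio at 6 h against 0 h was 0.28.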

How the data were processed

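Per the labels' protocols, Trizol-extracted total RNA (1 library per time) was freed of ribosomal RNA, ligated directionally and read on a SOLiD instrument. The submitters' processing notes name the build mm9. For the aligner, the sources used here give no name. Per the file headers and counting logs, the authors counted reads of 35 bases that mapped uniquely with at most 3 mismatches and kept repeated reads. The deposited counts are raw whole reads per gene, exon, intron and splice pair, by strand. The authors' deposited coverage signal, scaled to 10000000 mapped reads, was not used for results. Reads with several positions were dropped, so close copies are undercounted.

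Sense exonic and sense intronic counts were each scaled by TMM factors (edgeR 4.0.16, R 4.3.3). Antisense intronic reads and reads past a gene's end were scaled by the exonic factors. Exonic counts of a gene include splice reads, while counts of single exons leave them out. Ratios carry exact Clopper-Pearson 95% intervals (scipy 1.17.1, numpy 2.4.6, pandas 2.3.3, Python 3.11.15), which cover counting error only, and PCR copies make them too narrow. Log2 values used a pseudocount of 0.5 reads. First-intron odds used a correction of 0.5 and a normal approximation on the log odds. No label says that the libraries came from separate cultures. The ratio script was tested on simulated data. Figures were drawn with matplotlib 3.10.9.

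Values in every library were printed for members called in any comparison, for the 5 with the highest level at 0 h, and for those past 1.5-fold with an interval that excluded 1. The others were summarised, with examples. Members and lists were chosen with earlier results of these data known. Alternatives were DESeq2 1.42.0 size factors, total exonic, intronic or mapped reads, a minimum of 50 reads or none, a size of 1.5-fold, a pseudocount of 1 read, and introns without intron 4 of Snap25, the last chosen after seeing the data. The exon 5 pair was located with the GENCODE annotation of GRCm38 by its place relative to exon 4, with no conversion of coordinates.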

Additional observations from a re-analysis of the deposited data

Results flagged for a closer look

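Sense reads in the 500 bases past the annotated end of Sv2c, a region outside the exonic and intronic counts, were higher at 6 h than at 0 h. They numbered 6 at 0 h, 3 at 1 h and 25 at 6 h, a ratio of 3.94 (1.58 to 11.7) at 6 h against 0 h. Among all genes with enough reads there, 13.3% were called higher in that comparison, and Sv2c was the 1 of 9 members. The exons of Sv2c had a ratio of 4.96 in the same comparison, while its last annotated exon held 3, 1 and 0 reads.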

How the results depend on the processing

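A size of 1.5-fold changed the number of members called by exonic reads to 2 at 1 h against 0 h and to 7 at 6 h against 0 h, and by intronic reads to 10 at 6 h against 0 h, where 24.1% of all compared genes were called. A minimum of 50 reads left 2 members called by exonic reads and 2 by intronic reads at 6 h against 1 h. Only ratios already called were followed through the alternatives, which gave 133 values. None changed direction, 116 kept their call and 17 lost it. Of those 17, 10 fell short of the size under another scaling and 7 only through the minimum of 50 reads, with an unchanged ratio. The read minimums and the 1.5-fold size cannot change a ratio, and no minimum or a smaller size cannot remove a call, so much of this count was fixed beforehand. Among ratios not called, the intronic ratios of Cplx1 and Syn2 at 1 h did change direction with the exonic factors. Calls gained are outside the count. With the exonic factors, introns of 5 members were called at 1 h against 0 h, 2 higher and 3 lower. The share over all genes was then 29.8%, in place of 13.7%. Syt7, at 0.466 (0.369 to 0.587), and Stx1a, at 0.446 (0.238 to 0.806), were called lower only there. Scaling by mapped reads moved the median log2 exonic ratio of all genes to 0.25 at 1 h and 0.15 at 6 h against 0 h. The size of the exonic ratios below 1 given for Bsn, Pclo, the synapsins and the complexins therefore depends on the scaling. Their values under mapped reads are not given. A shift of this size could change the direction only of a ratio close to 1. Counts of distinct read positions were not run. No paired analysis was possible because each time has 1 library, and no library could be left out. Calls of Syt9, Syt12, Vamp2, Cplx2 and Stx1a rest on fewer than 50 reads in each library.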

Other observations

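Reads on the strand opposite to the gene were lower within introns at 1 h and 6 h in 3 members, as in many other genes. Of 5 members with at least 20 antisense intronic reads, 3 were called lower at each time, beside 48% of 988 genes at 1 h and 48.9% of 985 genes at 6 h. Called higher were 2.63% and 2.64% of those genes. These antisense reads were scaled by the exonic factors, and calls with the intronic factors are not given. For sense introns the exonic factors put the median log2 ratio of all genes at -0.66 at 1 h and -0.19 at 6 h against 0 h. The number and share called lower therefore depend on this scaling. Antisense intronic reads of Syt1 were 32, 7 and 9 at 0, 1 and 6 h, those of Rims2 were 21, 10 and 6, and those of Erc2 were 66, 7 and 21. The other 2 members were Syn2, with 43, 59 and 36, and Syn3, with 231, 233 and 254, and both have a gene on the opposite strand. Over all genes antisense intronic reads were 304290, 274454 and 280454.

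Sense reads in the 500 bases past the end of Syn3 were 46, 38 and 23, a ratio of 0.473 (0.274 to 0.796) at 6 h against 0 h, beside 0.584 in its exons and 0.414 in its introns. Of all genes compared there, 6.04% were called lower.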
